A study of Homo sapiens with 6 samples.

Results

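The genes described here are ANGPTL4, PLIN2, PDK4, CPT1A, FABP5 and the peroxisome proliferator-activated receptor (PPAR) genes PPARA, PPARD and PPARG, in PC9OR cells after knockdown of GLMP. They are 8 of the 60664 genes of the count table and were found in it by symbol. The set was put together with measured values of this same contrast in view, so the differences of these 8 genes between the groups are given as a description and carry no test. PC9 cells come from a human lung adenocarcinoma driven by a deletion mutant of EGFR, and PC9OR is the derivative named in the labels, which do not spell out its suffix. The si-GLMP group holds 3 libraries of PC9OR cells with GLMP knocked down by a small interfering RNA, and the NC group holds 3 libraries of PC9OR control cells. The labels give neither a time after transfection nor an siRNA sequence, and 1 cell line is the only model. The GLMP protein sits, glycosylated, in the lysosomal membrane.

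PPARs are nuclear receptors that fatty acids and their derivatives bind. Each pairs with a retinoid X receptor and sits on DNA at a direct repeat of the AGGTCA half-site, where it exchanges corepressors for coactivators when a ligand binds. Genes known as targets across many tissues act in the storage, transport and oxidation of fatty acids. ANGPTL4 encodes a secreted inhibitor of lipoprotein lipase, PLIN2 a coat protein of lipid droplets, PDK4 a kinase that switches off pyruvate dehydrogenase, CPT1A the enzyme that commits long-chain fatty acids to the mitochondrion, and FABP5 a cytosolic fatty acid binding protein. Several of these genes answer to other inputs as well: ANGPTL4 and PLIN2 are also induced by low oxygen, and ANGPTL4 and PDK4 by glucocorticoids.

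The promoters of ANGPTL4 and PLIN2, the members with the largest differences that had more than a few counts, are shown because they allow the letters of known binding motifs to be seen beside those values. The sequences are from RefSeq on GRCh38.p14, read on the gene's own strand from 5′ to 3′, and cover the part of the 250 bases before the start that lies outside annotated exons. ANGPTL4 is shown at chr19:8363905-8364150 on the plus strand, and PLIN2 at chr9:19127577-19127742 on the minus strand. Capitals mark every match, on either strand, to AGGTCA (the half-site of PPARs and other nuclear receptors), to ACGTG or GCGTG (the core letters bound by hypoxia-inducible factors), and to TATAAA (the TATA box).
ANGPTL4: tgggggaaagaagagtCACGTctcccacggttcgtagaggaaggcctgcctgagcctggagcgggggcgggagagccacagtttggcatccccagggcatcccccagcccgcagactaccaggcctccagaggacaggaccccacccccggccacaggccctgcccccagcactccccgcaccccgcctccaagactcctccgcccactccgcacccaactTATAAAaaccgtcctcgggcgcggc
PLIN2: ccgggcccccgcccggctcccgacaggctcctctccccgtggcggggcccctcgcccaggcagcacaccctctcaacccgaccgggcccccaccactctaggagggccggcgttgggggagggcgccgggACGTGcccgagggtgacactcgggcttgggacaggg
In ANGPTL4 the capitals are a TATAAA that begins 29 bases before the RefSeq start and 1 ACGTG on the opposite strand. In PLIN2 the stretch shown holds 1 ACGTG.

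Over the whole 250-base windows, with both strands searched and overlapping matches counted, ANGPTL4 held 1 ACGTG and PLIN2 held 3 ACGTG and 1 GCGTG. In PLIN2 a CACGTG, which reads the same on both strands, gave 2 of the 3 ACGTG matches, and a TATAAA lay outside the stretch shown. ACGTG was present in 18.5% and GCGTG in 32.2% of 34943 RefSeq promoter windows of the same length. Neither ANGPTL4 nor PLIN2 held AGGTCA, which 12.1% of the windows held. The window of PDK4 and that of CPT1A held none of these letters. PPARG held 1 ACGTG and 1 GCGTG at the first of its 6 annotated starts and 1 GCGTG at the last. PPARA held 1 GCGTG at the first of its 2 annotated starts. PPARD held 3 GCGTG and no AGGTCA. Among the members searched, which did not include FABP5, that half-site occurred in the windows of PPARG only: 2 matches at the first of its 6 annotated starts and 1 at each of the next 2, which overlap. The full response element, 2 AGGTCA half-sites in the same orientation with 1 base between them, was matched with 4 mismatches at best in ANGPTL4 and PDK4, with 5 in PLIN2 and CPT1A, and with 3 in PPARG. Up to 2 mismatches were met in 2.57% of the 34943 windows and in no window of these genes. Response elements of PPAR targets often lie within introns or farther away, which these windows do not cover.

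Library totals lay between 20313899 and 21041277 counts in si-GLMP and between 19896875 and 22372878 counts in NC. GLMP itself had 82, 61 and 65 counts in si-GLMP, against 309, 344 and 347 counts in NC, a log2 fold change of -2.25 ± 0.14 (SE, with edgeR adjusted p = 1.16e-18). A stretch of 607 bases of the GLMP exons, 17.5%, overlaps TMEM79 on the opposite strand. NC replicate 2 differed more from the other NC libraries (chi-square per degree of freedom 10.5 and 12.1 over genes) than they did from each other (2.23), so values without it are given below. The epithelial markers EPCAM, CDH1, KRT7, KRT8, KRT18 and KRT19 were abundant, while NKX2-1, SFTPB and SFTPC, markers of alveolar lineage, had at most 6 counts in any library. NAPSA, from the same marker list, had 11, 12 and 9 counts in si-GLMP and 2, 7 and 13 counts in NC. Summed adipocyte markers lay between 6.84 and 8.57 CPM (counts relative to the TMM-adjusted size of the library) in si-GLMP and between 5.58 and 6.63 CPM in NC. LIPE made up most of that sum, and ADIPOQ and LEP were at 0 in all 6 libraries. For 6 hepatocyte markers the sum lay between 0.533 and 0.613 CPM in si-GLMP and between 0.587 and 1.07 CPM in NC, with FABP1 and TTR at 0. Leukocyte markers summed to between 29.9 and 34.4 CPM in si-GLMP and to between 16.2 and 21.6 CPM in NC, nearly all of it CSF1R, with TYROBP and LYZ at 0. The 6 fibroblast markers summed to between 9.67 and 11.4 CPM in si-GLMP and to between 5.41 and 7.48 CPM in NC, mostly COL1A1, with COL3A1 at 0.

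ANGPTL4 and PLIN2 were higher in the knockdown, CPT1A differed little, PDK4 and FABP5 were barely detected, and none of the receptor genes was called, with small positive log2 fold changes for PPARA and PPARD and a small negative one for PPARG. Of the 8 members 7 had enough counts to be tested. At an edgeR adjusted p under 0.05, 2 of the 7, ANGPTL4 and PLIN2, were called higher, where 12% of all 15900 tested genes were, and 0 were called lower, where 11.3% were. The CPM of the groups did not overlap for 5 of the 7, against 36.5% of all tested genes. Without si-GLMP replicate 2, PPARD was called higher as well. Because the members were selected on this contrast, nothing is read from these counts.

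**Figure D1:**
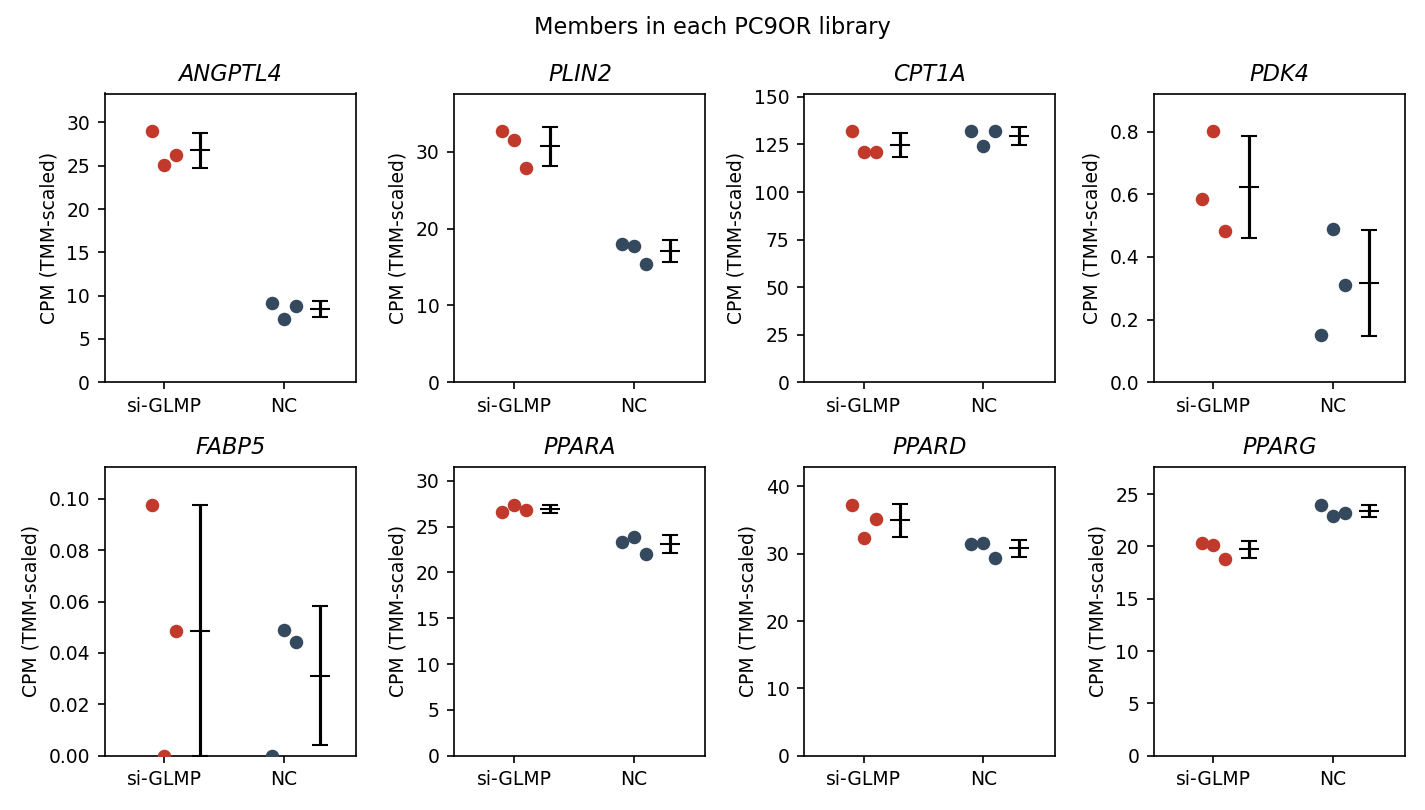
TMM-scaled CPM (vertical axes, from 0, each with its own range) of the 8 members in the 3 si-GLMP (red) and 3 NC (blue) libraries; points are libraries in replicate order, and bars beside them are mean ± SD. ANGPTL4 and PLIN2 sit higher in every si-GLMP library, CPT1A and PDK4 overlap between the groups, and FABP5 stays below 0.1 CPM.

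ANGPTL4 (ENSG00000167772; GRCh38 chr19:8363289-8374373, plus strand) had 593, 533 and 541 counts in si-GLMP, against 181, 150 and 199 counts in NC. That is 29.0, 25.1 and 26.2 CPM in si-GLMP, against 9.09, 7.34 and 8.83 CPM in NC. Each si-GLMP library lay far above each NC library, and the libraries within a group differed little. The mean level was 26.8 ± 1.99 CPM in si-GLMP and 8.42 ± 0.944 CPM in NC (SD, n = 3 each). The log2 fold change of 1.67 ± 0.11 (SE), or 3.18-fold, was the 30th largest positive one among 15900 tested genes. It stayed between 1.58 (without NC replicate 2) and 1.73 with any 1 library left out. Its exons share 1 base with those of the antisense gene RAB11B-AS1.

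PLIN2 (ENSG00000147872; chr9:19108375-19149290, minus strand) had 670, 671 and 575 counts in si-GLMP, against 359, 361 and 348 counts in NC. In CPM it stood at 32.7, 31.6 and 27.9 in si-GLMP, against 18.0, 17.7 and 15.4 in NC. The groups did not overlap, with the lowest si-GLMP library well above the highest NC library. Means were 30.7 ± 2.56 CPM in si-GLMP and 17.0 ± 1.40 CPM in NC (SD, n = 3 each), giving a log2 fold change of 0.85 ± 0.10 (SE), or 1.81-fold. Leaving out 1 library at a time gave 0.79 to 0.93, with 0.88 without NC replicate 2.

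CPT1A (ENSG00000110090; chr11:68754620-68844410, minus strand) was the most highly expressed member. It had 2696, 2559 and 2508 counts in si-GLMP, against 2637, 2529 and 2967 counts in NC. The groups overlapped, at 125 ± 6.18 CPM in si-GLMP and 129 ± 4.80 CPM in NC (SD, n = 3 each). The log2 fold change was -0.05 ± 0.07 (SE), smaller than its standard error, and lay between -0.09 and -0.03 with any 1 library left out (-0.08 without NC replicate 2).

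PDK4 (ENSG00000004799; chr7:95583499-95596491, minus strand) had 12, 17 and 10 counts in si-GLMP, against 3, 10 and 7 counts in NC. The lowest si-GLMP library and the highest NC library held the same 10 counts, and exact Poisson 95% intervals of these counts, which cover counting error only, ran from 4.80 to 18.4. PDK4 passed the filter on low counts through its 3 si-GLMP libraries alone: on library totals without TMM factors, which the filter uses, 0 NC libraries reached the required 0.481 CPM. It was thus tested only because of its si-GLMP counts, and its difference is no support for a change. At 0.624 ± 0.162 CPM in si-GLMP and 0.317 ± 0.169 CPM in NC (SD, n = 3 each), its log2 fold change was 0.96 ± 0.49 (SE). Single libraries moved that value to 0.65 (without NC replicate 1) and to 1.39 (without NC replicate 2). A difference of this size could not be resolved at this depth.

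FABP5 (ENSG00000164687; chr8:81280363-81284777, plus strand) had 2, 0 and 1 counts in si-GLMP, against 0, 1 and 1 counts in NC, and was not tested. All 6 libraries were under the floor of 3 counts, which corresponds to 0.133 to 0.151 CPM, so no fold change is given. FABP5 has many near-identical processed pseudogenes, and reads that match several copies can be dropped or moved by the counting. The 15 listed pseudogenes together had 4, 2 and 10 counts in si-GLMP and 6, 2 and 7 counts in NC, and 11 of them were at 0 in all libraries. The reads were therefore not found under those names either. How shared reads were handled is not given in the sources used here, so the level of FABP5 is uncertain, and the cause of its low count was not tested. A stretch of 94 bases of its exons, 4.53%, overlaps AC009902.2 on the opposite strand.

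All 3 receptor genes were expressed. PPARA (ENSG00000186951; chr22:46150521-46243756, plus strand), the receptor best known from fatty acid oxidation in liver, had 545, 582 and 554 counts in si-GLMP, against 465, 489 and 496 counts in NC. Its level was 27.0 ± 0.421 CPM in si-GLMP and 23.1 ± 0.983 CPM in NC (SD, n = 3 each), giving a log2 fold change of 0.22 ± 0.09 (SE). The groups did not overlap.

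PPARD (ENSG00000112033; chr6:35342558-35428191, plus strand), the most widely expressed of the receptors across tissues, had 764, 687 and 726 counts in si-GLMP, against 628, 646 and 662 counts in NC. The level was 35.0 ± 2.48 CPM in si-GLMP and 30.8 ± 1.27 CPM in NC (SD, n = 3 each), giving a log2 fold change of 0.18 ± 0.09 (SE). The groups came close, with the lowest si-GLMP library at 32.4 CPM and the highest NC library at 31.6 CPM.

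PPARG (ENSG00000132170; chr3:12287368-12434356, plus strand), the receptor that drives fat cell formation, was lower in every si-GLMP library than in any NC library, in CPM. It had 416, 426 and 389 counts in si-GLMP, against 478, 469 and 522 counts in NC. Levels of 19.8 ± 0.798 CPM in si-GLMP and 23.4 ± 0.555 CPM in NC (SD, n = 3 each) gave a log2 fold change of -0.24 ± 0.10 (SE). Leaving out 1 library at a time gave 0.19 to 0.25 for PPARA, 0.13 to 0.24 for PPARD and -0.26 to -0.20 for PPARG. Without NC replicate 2 the values were 0.25, 0.20 and -0.25. The receptor differences were thus far smaller than those of ANGPTL4 and PLIN2.

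Levels of different genes were compared per kilobase of annotated exon. CPT1A came first, at 18.4 to 20.1 CPM per kilobase in si-GLMP and 18.8 to 20.2 in NC, clear of all others. By this length ANGPTL4 was second in si-GLMP, at 10.1 to 11.7 CPM per kilobase, above PPARD at 7.27 to 8.38. In NC that order was turned, with ANGPTL4 at 2.96 to 3.66 and PPARD at 6.59 to 7.09 CPM per kilobase. PLIN2, at 5.48 to 6.44 in si-GLMP and 3.04 to 3.54 in NC, was likewise above PPARG (4.16 to 4.48) in si-GLMP and below it (5.06 to 5.29) in NC, and in NC it overlapped ANGPTL4. PPARA followed at 2.01 to 2.08 CPM per kilobase in si-GLMP and 1.67 to 1.81 in NC. PDK4 stayed at or under 0.177 CPM per kilobase and FABP5 at or under 0.0471.

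The ratio of PPARD to PPARG per kilobase was 1.87, 1.64 and 1.90 in si-GLMP, against 1.34, 1.40 and 1.29 in NC, with no overlap. Whether PPARD or PPARG ranks first depends on the length used, since the exons of PPARG add up to 4535 bases but its longest coding transcript has 2029, against 4457 and 3774 for PPARD. Per kilobase of the longest coding transcript, PPARG stood at 9.74 ± 0.393 CPM in si-GLMP and 11.5 ± 0.274 CPM in NC, and PPARD at 9.27 ± 0.657 CPM in si-GLMP and 8.17 ± 0.336 CPM in NC (SD, n = 3 each). PPARG then led in NC, the receptors overlapped in si-GLMP, and PPARA was lowest by either length. The places of ANGPTL4 and PLIN2 depend on the length too. By the longest coding transcript PLIN2 reached 15.6 ± 1.30 CPM per kilobase in si-GLMP and 8.64 ± 0.709 in NC, and ANGPTL4 14.2 ± 1.06 in si-GLMP and 4.48 ± 0.502 in NC (SD, n = 3 each). In si-GLMP their ranges then overlapped, at 14.1 to 16.6 for PLIN2 and 13.4 to 15.4 for ANGPTL4. In NC PLIN2, at 7.83 to 9.14, lay above ANGPTL4, at 3.91 to 4.84, and below PPARG, at 11.3 to 11.8. The direction of each gene between si-GLMP and NC does not depend on the length.

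**Figure D2:**
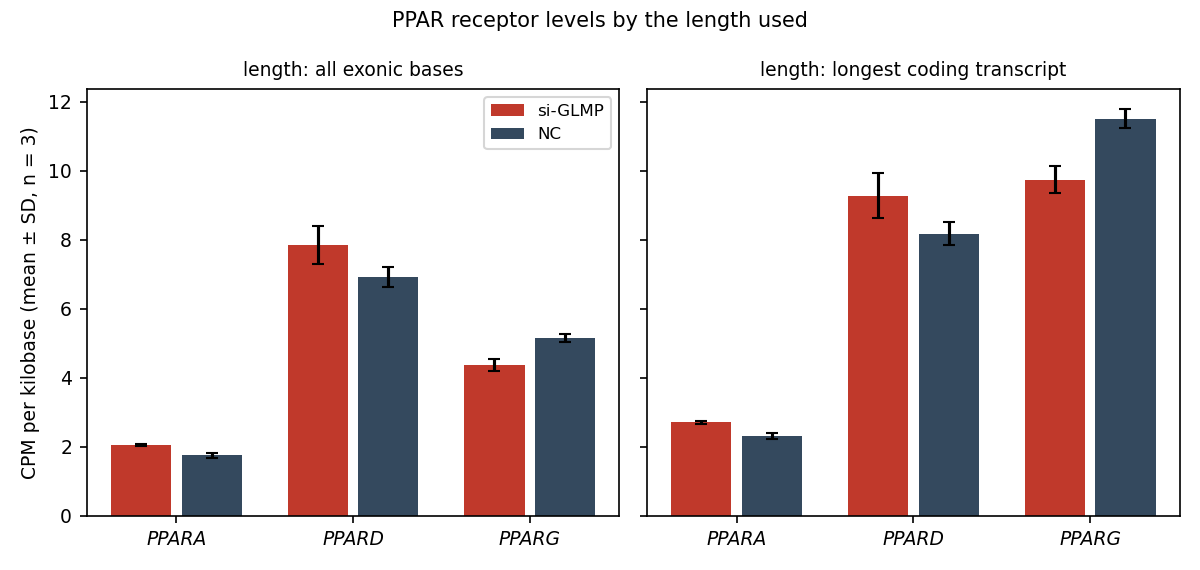
CPM per kilobase (vertical axis, from 0) of PPARA, PPARD and PPARG in si-GLMP (red) and NC (blue), as mean ± SD of 3 libraries, with length taken as all exonic bases (left) or the longest coding transcript (right). PPARD is above PPARG on the left, and PPARG is above PPARD in NC on the right.

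The genes around these members were described with 12 lists, from which the members themselves were left out. The lists were chosen with earlier results of these data known, so their shares, here and below, are a description. Across 239 listed genes, 184 were tested, of which 36 rose and 24 fell in si-GLMP, with 0.05 as the limit of the edgeR adjusted p. The shares of 19.6% and 13.0% stand beside 12% and 11.3% of all tested genes, and the median log2 fold change was 0.00 both for the listed genes and for all tested genes. Passing in either direction was met by 23.3% of all tested genes. Without NC replicate 3, 26 listed genes rose and 14 fell, and of all tested genes 1577 rose and 1435 fell, beside 1910 and 1802 with all libraries.

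**Figure D3:**
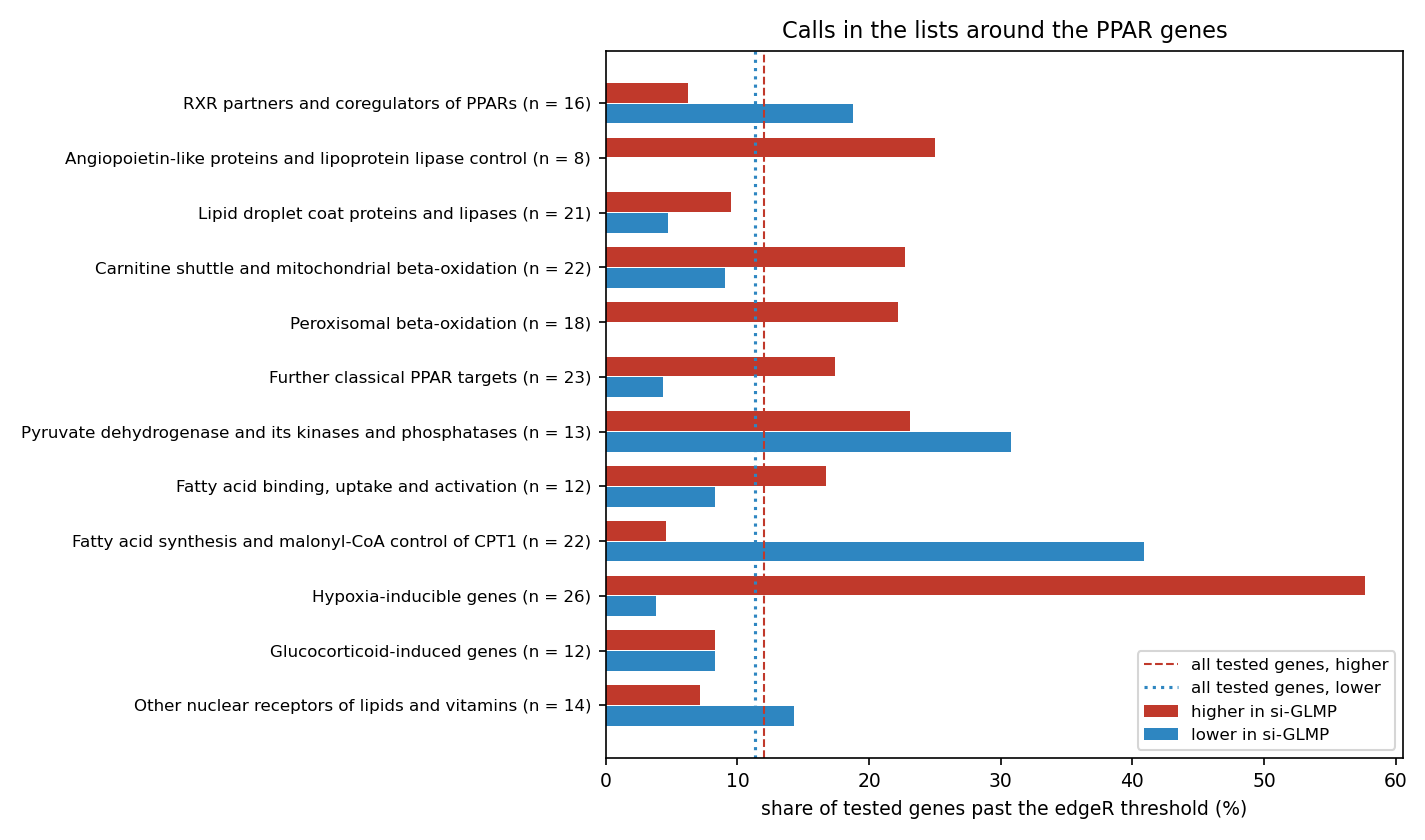
Share of the tested genes of each list that was called higher (red) or lower (blue) in si-GLMP, in percent, with the shares over all 15900 tested genes as a dashed line (higher, 12%) and a dotted line (lower, 11.3%). The hypoxia list reaches 57.7% higher, and the list of fatty acid synthesis and malonyl-CoA control 40.9% lower.

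Among the partners and coregulators of PPARs, 1 of 16 tested genes rose and 3 fell (median log2 fold change -0.09). The counts were 2 higher without si-GLMP replicate 3, and 2 lower without si-GLMP replicate 2 or 3 or any 1 NC library. RXRA and RXRB, the dimer partners, had log2 fold changes of 0.03 and -0.10 (edgeR adjusted p = 0.837 and 0.552). RXRA turned to -0.03 without si-GLMP replicate 1. PPARGC1B, a coactivator of PPARs and oestrogen-related receptors, fell to 13.4 ± 2.13 CPM in si-GLMP, against 22.6 ± 0.629 CPM in NC (SD, n = 3 each), giving a log2 fold change of -0.75 ± 0.11 (SE, with edgeR adjusted p = 2.26e-07). Its better known relative PPARGC1A had at most 2 counts in any library. NCOA3, a coactivator, rose by 0.32 (log2, edgeR adjusted p = 3.35e-04), and the corepressor NCOR1 had -0.29 (edgeR adjusted p = 8.12e-04).

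ANGPTL4 was the only angiopoietin-like gene of its group with enough counts to be tested. Of 22 listed genes for angiopoietin-like proteins and the control of lipoprotein lipase, 8 were tested, 2 rose and 0 fell. ANGPTL8, a partner protein in lipase inhibition, had 0, 0 and 2 counts in si-GLMP and 2 in each NC library. LPL, the enzyme that ANGPTL4 inhibits, had 4, 2 and 3 counts in si-GLMP and 1, 6 and 8 counts in NC. These partners were thus near the floor in both groups. PCSK5, a proprotein convertase that can cleave ANGPTL4, had a log2 fold change of 0.64 ± 0.10 (SE, with edgeR adjusted p = 1.29e-06), and the convertase FURIN one of 0.20 (edgeR adjusted p = 0.0171). The FURIN call was lost without si-GLMP replicate 3, NC replicate 1 or NC replicate 3 (edgeR adjusted p 0.0583 to 0.0886). PCSK6 (-0.18) and the endothelial lipase gene LIPG (-0.11) did not pass (edgeR adjusted p = 0.284 and 0.277).

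Of the genes for lipid droplet coats and lipases, 2 of 21 tested rose and 1 fell (median log2 fold change -0.11), so the higher level of PLIN2 was not shared by most of them. Without si-GLMP replicate 1 or 2 or NC replicate 2, 2 fell. PLIN3, the coat protein closest to PLIN2 in its broad tissue range, rose to 188 ± 8.51 CPM in si-GLMP, against 141 ± 5.35 CPM in NC (SD, n = 3 each), by 0.42 ± 0.07 (log2, edgeR adjusted p = 1.45e-06). PNPLA2, the main triglyceride lipase of droplets, rose by 0.40 (edgeR adjusted p = 1.37e-04). LDAF1, a droplet assembly factor that the table lists as TMEM159, had -0.47 (edgeR adjusted p = 0.00328). PNPLA3, a relative of that lipase, had -0.29 (edgeR adjusted p = 0.0517, and 0.0195 without NC replicate 2).

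In mitochondrial fatty acid oxidation, 5 of 22 tested genes rose and 2 fell (median log2 fold change 0.06). ACADVL, the first dehydrogenase for very long chains, rose to 315 ± 11.8 CPM in si-GLMP, against 207 ± 5.87 CPM in NC (SD, n = 3 each), giving a log2 fold change of 0.61 ± 0.06 (SE, with edgeR adjusted p = 5.37e-11). SLC25A20, the carnitine carrier that works directly after CPT1A, rose by 0.54 ± 0.13 (edgeR adjusted p = 0.00148). CPT2, which acts after that carrier, had 0.19 (edgeR adjusted p = 0.148). CPT1C, the neuronal relative of CPT1A, had -0.70 at a low level (edgeR adjusted p = 0.153), and CPT1B, the muscle form, had 16, 9 and 3 counts in si-GLMP and 5, 2 and 4 counts in NC. SLC22A5, the plasma membrane carnitine transporter, had -0.28 (edgeR adjusted p = 0.0309), a call lost without si-GLMP replicate 1 or 2 or NC replicate 2 or 3 (0.0744 to 0.131). The counts were 3 higher without si-GLMP replicate 1 or any 1 NC library, and 0 lower without si-GLMP replicate 1 or 2 or NC replicate 2 or 3.

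Peroxisomal oxidation had 4 of 18 tested genes higher and 0 lower (median log2 fold change 0.12), and 2 higher without si-GLMP replicate 1 or 3 or NC replicate 1 or 3. ACOX2, the oxidase for branched chains and bile acid precursors, had 5.44 ± 0.346 CPM in si-GLMP and 2.86 ± 0.254 CPM in NC (SD, n = 3 each), giving a log2 fold change of 0.93 ± 0.18 (SE, with edgeR adjusted p = 5.08e-05). ECH1 (0.28) and ACAA1 (0.25) passed narrowly (edgeR adjusted p = 0.0334 and 0.0417). The ECH1 call was lost without si-GLMP replicate 1 or 3 or NC replicate 1 or 3 (0.0927 to 0.294), and the ACAA1 call without si-GLMP replicate 1 or 3 or any 1 NC library (0.0560 to 0.184).

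A list of 37 further classical PPAR targets, which overlaps the oxidation lists, had 23 genes tested, 4 higher and 1 lower (median log2 fold change 0.09), and 2 higher without si-GLMP replicate 3, NC replicate 1 or NC replicate 3. Besides ACADVL, SLC25A20 and ECH1, the gene that rose was SLC27A2, a fatty acid transporter and activating enzyme, with 0.46 (edgeR adjusted p = 0.0470, and 0.0601 to 0.289 without si-GLMP replicate 2 or 3 or any 1 NC library). ACSL3, an acyl-CoA synthetase of lipid droplets, had -0.42 (edgeR adjusted p = 1.25e-06). Of the 12 tested genes for fatty acid binding, uptake and activation, 2 rose and 1 fell, and 0 rose without si-GLMP replicate 3, NC replicate 1 or NC replicate 3. ACSL5, a mitochondrial acyl-CoA synthetase, had 0.31 (edgeR adjusted p = 0.0148), a call lost in those same 3 fits (0.0528 to 0.0707). CRABP2, which shares retinoic acid as a ligand with FABP5, had -0.16 (edgeR adjusted p = 0.0966, and 0.0208 without si-GLMP replicate 1).

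The pyruvate dehydrogenase list moved in both directions, with 3 of 13 tested genes higher and 4 lower (median log2 fold change -0.15). DLAT, the acetyltransferase core of the complex, fell to 41.0 ± 2.13 CPM in si-GLMP, against 65.4 ± 2.83 CPM in NC (SD, n = 3 each), giving a log2 fold change of -0.67 ± 0.08 (SE, with edgeR adjusted p = 7.27e-10). Among the relatives of PDK4, PDK1 rose by 0.42 (edgeR adjusted p = 5.53e-05), PDK3 had -0.37 (edgeR adjusted p = 0.00173), and PDK2 had -0.19 (edgeR adjusted p = 0.314). PDHX, the component that binds the dehydrogenase subunit DLD, rose by 0.30 (edgeR adjusted p = 0.00645, and 0.0911 without NC replicate 1). The list had 1 gene higher without NC replicate 1, and 2 lower without any 1 of the NC libraries.

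In the list for making fatty acids and for malonyl-CoA control of CPT1A, genes were mostly lower where they passed. Of 22 tested, 9 fell, 40.9% beside 11.3% of all tested genes, and 1 rose (median log2 fold change -0.21). The 22 include subunit genes of AMP-activated protein kinase, from the control part of the list. PRKAG2, 1 of these subunit genes and named after its values were seen, was among the 9 that fell (-0.28, edgeR adjusted p = 0.0105). ACACA, which makes malonyl-CoA, had -0.27 (edgeR adjusted p = 0.00216). Its relative ACACB, named after its values were seen, did not pass, at -0.22 (edgeR adjusted p = 0.160). The elongase gene ELOVL6 had -0.36 (edgeR adjusted p = 2.90e-04), and the desaturase genes FADS2 and FADS1 had -0.36 and -0.28 (edgeR adjusted p = 0.00100 and 0.00126). FASN and ACLY, named after their values were seen, differed little, at -0.05 and 0.00 (edgeR adjusted p = 0.593 and 0.978). The gene that rose was ELOVL1, at 0.25 (edgeR adjusted p = 0.00220). SCD, the stearoyl-CoA desaturase, named after its values were seen, had 4228, 5215 and 2944 counts in si-GLMP, against 7171, 7976 and 8747 counts in NC, and a log2 fold change of -0.94 ± 0.22 (SE, with edgeR adjusted p = 0.0489). The si-GLMP libraries spread widely for SCD but none reached an NC library. Without NC replicate 1, 5 genes of the list fell.

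**Figure D4:**
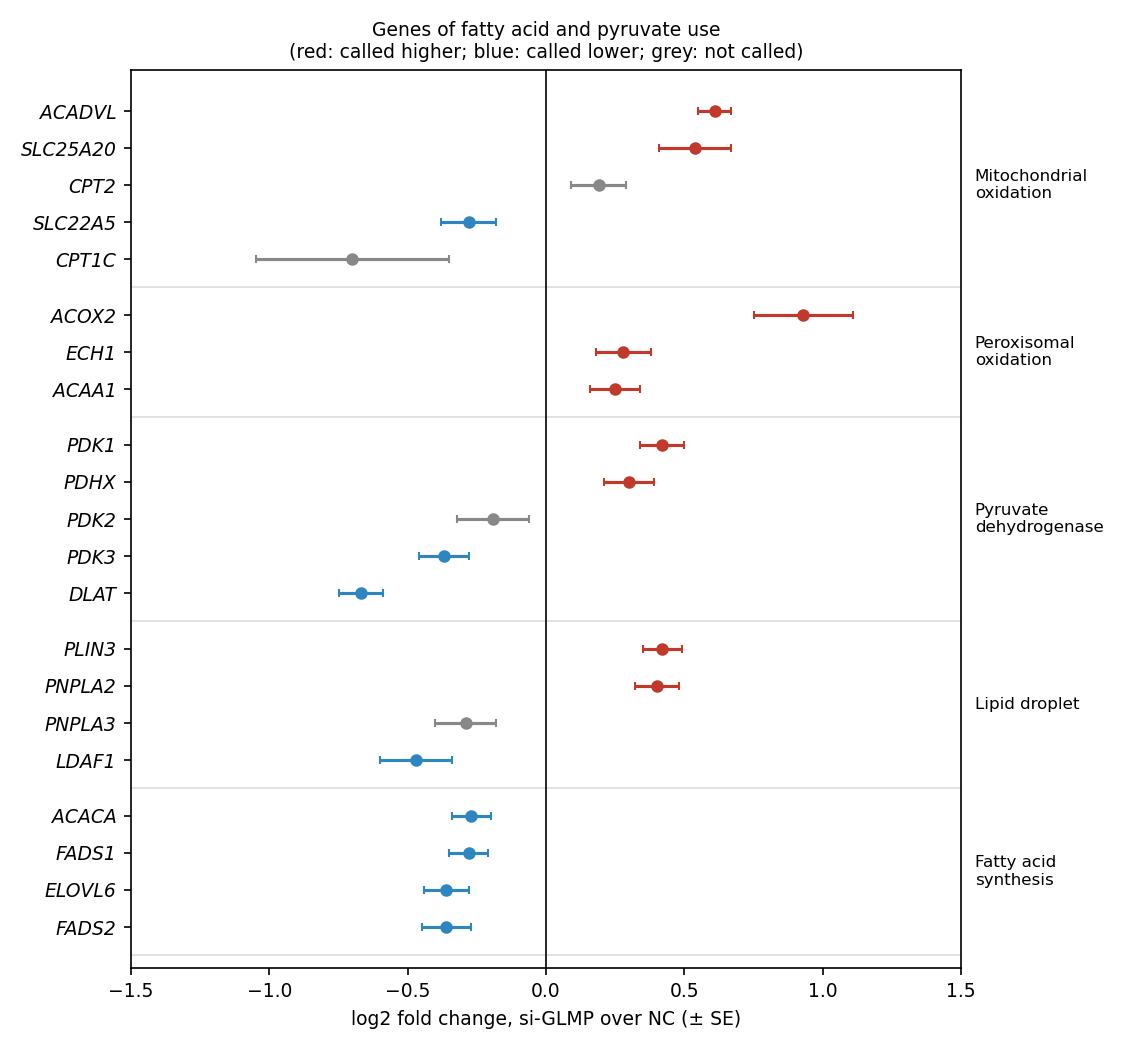
Log2 fold change, si-GLMP over NC, with its standard error, for genes of 5 lists chosen by the naming rule; red genes were called higher, blue genes lower, and grey genes were not called. The genes shown for peroxisomal oxidation all lie right of 0 and those of fatty acid synthesis all left of 0, while the other lists hold both. The rule takes mostly genes with the smallest adjusted p. Peroxisomal genes that are not shown include negative values, such as CRAT at -0.14 and ACOT4 at -0.25. FASN, ACLY and ELOVL1 are not among the genes shown.

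Since ANGPTL4 and PLIN2 are also known to respond to low oxygen, hypoxia-inducible genes were listed beside them. The list also holds HIF1A and EPAS1, genes of hypoxia-inducible factors themselves. Of 26 tested, 15 rose, 57.7% beside 12% of all tested genes, and 1 fell (median log2 fold change 0.28). The other 10 did not pass. Among these, named after their values were seen, were CA9, ADM and LDHA, at 0.23, 0.15 and -0.03 (edgeR adjusted p = 0.667, 0.268 and 0.817). EGLN3, an oxygen-sensing prolyl hydroxylase, had 1.36 ± 0.09 (SE, with edgeR adjusted p = 1.46e-15), and SLC2A1, VEGFA and SLC16A3, for a glucose transporter, a vessel growth factor and a lactate exporter, had 0.73, 0.70 and 0.53. Without any 1 library, 13 to 16 of the 26 were higher, and 0 were lower without si-GLMP replicate 3 or any 1 NC library. The list of glucocorticoid-induced genes also holds NR3C1, the gene of the glucocorticoid receptor itself. Of its 12 tested genes, 1 rose and 1 fell (median log2 fold change -0.06), with 2 higher without si-GLMP replicate 2 and 2 lower without si-GLMP replicate 1 or 3. These were ERRFI1, a feedback inhibitor of EGFR, at 0.34 (edgeR adjusted p = 2.37e-04), and TFCP2L1, an epithelial transcription factor, at -0.55 (edgeR adjusted p = 7.34e-04). SGK1 and CEBPD had -0.20 and 0.31 (edgeR adjusted p = 0.0692 and 0.0906), and CEBPD passed without si-GLMP replicate 2 (0.0109). The part of either input in the values of ANGPTL4 and PLIN2 was not tested.

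Of 14 tested nuclear receptor genes outside the PPARs, 1 rose and 2 fell (median log2 fold change 0.07). The counts were 2 higher without si-GLMP replicate 2 or NC replicate 1, and 1 lower without si-GLMP replicate 3 or NC replicate 3. NR2F2, an orphan receptor that can bind the same direct repeats as PPARs, fell to 68.0 ± 6.76 CPM in si-GLMP, against 137 ± 12.4 CPM in NC (SD, n = 3 each), giving a log2 fold change of -1.01 ± 0.08 (SE, with edgeR adjusted p = 1.10e-15). The liver X receptor gene NR1H2 rose by 0.30 (edgeR adjusted p = 0.00253). The circadian repressor gene NR1D2 had -0.30 (edgeR adjusted p = 0.00618), lost without si-GLMP replicate 3 or NC replicate 3 (0.0888 and 0.0541), and NR1D1 had -0.28 (edgeR adjusted p = 0.0530, and 0.0450 without NC replicate 1).

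Genes that start within 100000 bases of a member's start were also compared: 18 were tested, 3 rose and 1 fell. Of all tested genes, 12% rose and 11.3% fell, 23.3% in either direction, so nothing is read from this count. Next to ANGPTL4, the nearest tested gene KANK3 had a log2 fold change of 0.51 at few counts (edgeR adjusted p = 0.488), and RAB11B had -0.00 (edgeR adjusted p = 0.991). The antisense gene RAB11B-AS1, whose exons touch those of ANGPTL4, had 21, 37 and 18 counts in si-GLMP and 9, 19 and 25 counts in NC (log2 fold change 0.53, edgeR adjusted p = 0.296). CD320, a receptor for vitamin B12 carriage that starts 54933 bases away, rose by 0.41 (edgeR adjusted p = 2.98e-04). The large difference of ANGPTL4 was thus not matched by any of its 7 tested neighbours. RRAGA, a GTPase of nutrient sensing at the lysosome, starts 99895 bases from PLIN2 and rose by 0.43 (edgeR adjusted p = 1.14e-04). Near PPARD, ZNF76 rose by 0.47 (edgeR adjusted p = 2.46e-04) and DEF6 had -0.49 (edgeR adjusted p = 0.00556), a call lost without si-GLMP replicate 3 or NC replicate 1 (0.0846 and 0.0771).

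The genes whose pattern over the 6 libraries was most like that of ANGPTL4 were found among 10629 tested genes with a mean of at least 100 counts, by the root mean square difference of log2 CPM centred on each gene's mean. They were C1S (0.136), C3 (0.162), TRPV3 (0.164), IL24 (0.197) and OSGIN1 (0.201). C1S and C3 encode complement components, TRPV3 a cation channel, IL24 a cytokine and OSGIN1 an oxidative stress-induced growth inhibitor. Their log2 fold changes lay between 1.30 (OSGIN1) and 1.68 (C3), beside 1.67 for ANGPTL4, and are a description because likeness to ANGPTL4 chose them.

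**Figure D5:**
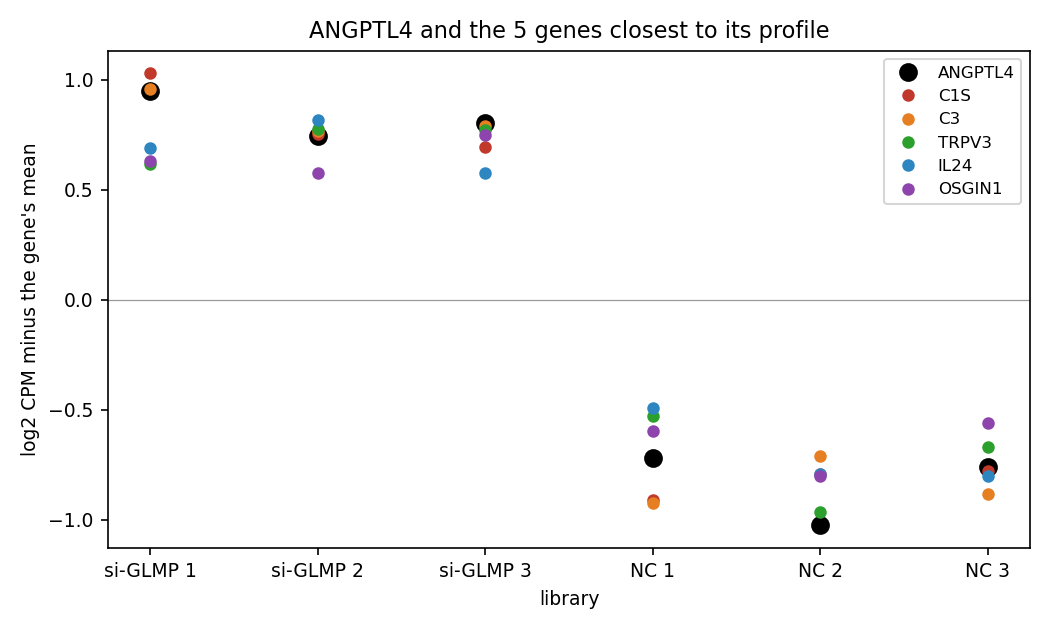
Log2 CPM minus each gene's mean over the 6 libraries (vertical axis) in the si-GLMP and NC libraries, for ANGPTL4 (large black points) and the 5 genes closest to it. All 6 genes lie above their mean in each si-GLMP library and below it in each NC library.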

How the data were processed

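RNA of 6 PC9OR libraries, 3 si-GLMP and 3 NC, was sequenced as Illumina mRNA libraries, per the labels' protocols. The authors deposited read counts per gene, not normalized, that sum to a different total in each library. The submitters' processing notes name HISAT2 and GRCh38, without versions. Which tool counted the reads, on which annotation and with what strand setting is not given in the sources used here, so reads of overlapping genes on the 2 strands may be mixed.

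Titles of the samples gave the groups. Whether replicates were separate cultures is not stated, so the p-values cover only the spread among these libraries, possibly technical. No 2 libraries agreed within sampling noise.

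Counts were tested with edgeR 4.0.16 in R 4.3.3: filterByExpr with a minimum count of 10, which left 15900 genes, TMM scaling (factors 0.9639 to 1.018), robust quasi-likelihood F test with group as the only term, and Benjamini-Hochberg adjustment over all tested genes at 0.05. The text calls this value "edgeR adjusted p". A standard error is the size of a log2 fold change over the square root of its F. The procedure was tested on simulated data of 15513 genes. There it recovered 22 of 50 genes changed 1.25-fold, 37 of 50 changed 1.5-fold and 49 of 50 changed 2-fold. It also called 10 unchanged genes. Small differences can thus go uncalled. Lengths and coordinates are those of GENCODE 29 on GRCh38, in which 58396 of the 60664 identifiers were found, and promoters those of RefSeq on GRCh38.p14.

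The members and the gene lists were chosen with earlier results of these data known. Named genes were the members, GLMP, up to 4 genes per list with the smallest adjusted p, close relatives of the members, neighbours that passed, and the 5 genes most like ANGPTL4. Of these, 4 genes are not reported here, though counts over the lists include them. Alternatives were RLE and upper-quartile scaling, leaving out each library, no low-count filter or one of 1 CPM in 3 libraries, DESeq2 1.42.0, limma-voom (limma 3.58.1) and the replicate number as a block. Length by the longest coding transcript was added after seeing the data.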

Additional observations from a re-analysis of the deposited data

How the results depend on the processing

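For the 7 tested members, all 90 alternative log2 fold changes kept their sign and moved by less than the spread between replicates, and PDK4 gave none under the filter of 1 CPM. Leaving out 1 library can hardly move a value by more than that spread, so by this measure those fits are no evidence of stability. PDK4 counted as unmoved in them, although it ranged from 0.65 to 1.39. Across the other named genes, 701 alternative values kept their call, 43 lost it, 9 gained it and 1 reversed. The reversal was RXRA, at -0.03 without si-GLMP replicate 1, with a range of -0.03 to 0.06 over the libraries left out. Leaving out each library in turn gave 14 to 23 listed genes lower, beside 24 with all 6, the lowest without NC replicate 3. It gave 26 to 36 listed genes higher, beside 36 with all 6. Calls over all tested genes dropped in those fits too, to between 1482 and 1788 higher and between 1283 and 1660 lower. The same replicate numbers did not pair the libraries (correlations of deviations 0.0315, 0.0206 and 0.00270). With the replicate number as a block, 2052 genes were higher and 1920 lower, beside 1910 and 1802 without it, and among the listed genes 37 were higher and 27 lower. PPARG was then called lower, and no other member changed its call under the block. The added length choice moved the levels per kilobase of 7 members beyond the spread between replicates. The low counts of PDK4 limit its precision. FABP5 was under the floor of 3 counts in every library, and the cause was not tested.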
